A study of Mus musculus with 12 samples.

Results

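The genes followed here are 7 markers of the macrophages that live in the healthy heart, *Timd4*, *Folr2*, *Cd163*, *Mrc1*, *Cbr2*, *Vsig4* and *Maf*, and the pan-macrophage genes *Adgre1* and *Csf1r*, against which the markers were compared. These 9 genes were chosen by symbol, and 9 of 9 were found among the 53801 genes measured. Hearts of male C57BL/6N mice, 10 to 14 weeks old per the study's methods, were taken after sham surgery (Sham), 1 day after acute myocardial infarction (Day 1 AMI) or 7 days after it (Day 7 AMI), with 4 hearts and 1 RNA-Seq library per heart in each group. AMI was made by tying the left anterior descending coronary artery, no allele or agent was added in any group, and the day on which sham hearts were taken is not given in the text of the paper. The labels name the heart as the tissue and do not set the infarct apart from the rest of the wall.

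Resident macrophages settle in the heart before birth, are renewed there largely without blood monocytes, and are known for clearing debris and dying cells. *Timd4*, *Folr2* and other genes of this set are used to tell these cells from the monocyte-derived macrophages that enter the heart after infarction. *Adgre1*, which encodes the F4/80 antigen, and *Csf1r*, the receptor that macrophages need for survival and growth, are carried by both kinds. In RNA of a whole heart, fewer cells of a type and less RNA per cell cannot be told apart.

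In GRCm38, *Timd4* lies at chr11:46810800-46844332, *Cd163* at chr6:124304656-124330527, *Mrc1* at chr2:14229392-14332057 and *Adgre1* at chr17:57358691-57483527, all on the plus strand and with no exon shared with another annotated gene. *Vsig4* lies at chrX:96247203-96293438 on the minus strand, likewise with no shared exon. *Folr2* (chr7:101839988-101857194, minus strand) has 63.1% of its exon bases overlapped by the antisense gene *Gm10602*, which had between 54 and 100 counts per library. *Cbr2* (chr11:120729489-120732114, minus strand) shares 8.31% of its 75-base stretches with *Gm11771*. *Maf* (chr8:115682942-115707794, minus strand) has 5.34% of its exon bases overlapped by *Gm15655*, which had between 0 and 33 counts. *Csf1r* has 15.1% overlapped by the antisense gene *Hmgxb3*, which had between 562 and 1124 counts. The strand that was counted is not given in the sources used here, so reads of these overlapping pairs cannot be told apart.

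The 250 bases before the RefSeq start (GRCm38.p6) are shown for 3 markers whose levels went different ways after AMI: *Mrc1* was higher, *Cd163* lower on Day 7, and *Timd4* did not pass the test. Capitals mark GAGGAA, the core letters bound by the macrophage factor PU.1 (encoded by *Spi1*), and TGCTGA, letters of the recognition element of MAF, on either strand, and neither motif overlapped the other.
Mrc1 promoter, chr2:14229164-14229413, plus strand: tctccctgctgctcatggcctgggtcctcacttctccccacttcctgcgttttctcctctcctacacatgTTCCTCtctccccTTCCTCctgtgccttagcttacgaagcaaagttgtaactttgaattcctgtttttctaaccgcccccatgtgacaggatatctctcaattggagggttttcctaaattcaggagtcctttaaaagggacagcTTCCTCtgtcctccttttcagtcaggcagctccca
Cd163 promoter, chr6:124304401-124304650, plus strand: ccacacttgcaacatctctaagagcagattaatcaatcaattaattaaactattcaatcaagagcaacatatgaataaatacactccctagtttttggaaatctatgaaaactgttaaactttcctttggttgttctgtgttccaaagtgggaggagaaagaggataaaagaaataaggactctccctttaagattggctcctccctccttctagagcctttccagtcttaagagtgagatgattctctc
Timd4 promoter, chr11:46810549-46810798, plus strand: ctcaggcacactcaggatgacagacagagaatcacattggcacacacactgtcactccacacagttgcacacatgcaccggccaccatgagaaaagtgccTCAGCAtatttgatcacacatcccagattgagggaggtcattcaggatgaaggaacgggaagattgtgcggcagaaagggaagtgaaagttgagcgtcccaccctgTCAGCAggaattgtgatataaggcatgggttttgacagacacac
The *Mrc1* window held 3 GAGGAA matches and no TGCTGA, and the *Timd4* window held 2 TGCTGA matches and no GAGGAA. Neither set of letters was in the *Cd163* window, which says nothing of either factor at this gene. Of 32851 RefSeq promoters of the same length, 23.3% held GAGGAA and 16.1% held TGCTGA.

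Each library held between 23204551 and 32166517 counts. A count of 3, taken as the smallest a library can show, covers counting error only. Expression is given as CPM, the share of a library's counts on the usual per-million scale after edgeR's TMM factors, and between genes only as TPM, the authors' measure per transcript length. The 12 libraries were fitted together in edgeR (quasi-likelihood), and 15306 genes were tested, 9 of 9 members among them. A gene was called where its false discovery rate (FDR) over these genes was below 0.05 and its level differed at least 2-fold, the fold change being written FC. The TMM factors differed between groups, from 0.781 to 0.917 in Sham and from 1.10 to 1.17 in Day 7 AMI. On library sizes alone the median log2 FC of all genes stood at 0.26 for Day 1 AMI against Sham, 0.15 for Day 7 AMI against Day 1 AMI and 0.43 for Day 7 AMI against Sham, so the differences below are relative to the median gene. Mitochondrial genes took 17.9% to 27.4% of the counts in Sham, with replicate 1 highest, 12.1% to 15.9% on Day 1 and 13.2% to 19.2% on Day 7. The part of this share in the differences between groups was not tested. Hearts labelled as separate replicates were treated as such, and p-values measure only the spread between these libraries.

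The pan-macrophage genes rose at each step. *Adgre1* was at 12.1, 10.9, 9.85 and 7.12 CPM in the 4 Sham hearts, at 24.9, 27.4, 19.8 and 28.2 CPM on Day 1, and at 59.0, 38.7, 33.7 and 58.1 CPM on Day 7. No heart of one group overlapped another group. The log2 FC of *Adgre1* was 1.33 (SE 0.201, edgeR FDR = 0.000209) on Day 1 against Sham and 2.25 (SE 0.204, FDR = 6.93e-07) on Day 7 against Sham, both called. From Day 1 to Day 7 it was 0.92 (SE 0.191, FDR = 0.00132), under the FC of 2. *Csf1r* was at 53.0, 51.3, 52.4 and 52.7 CPM in Sham, at 64.8, 83.9, 61.3 and 75.6 CPM on Day 1, and at 140, 100, 95 and 139 CPM on Day 7. The Sham hearts lay within 2 CPM of one another, and the 3 groups again did not overlap. The log2 FC of *Csf1r* was 0.45 on Day 1 (SE 0.133, edgeR FDR = 0.015) and 1.18 on Day 7 against Sham (SE 0.134, FDR = 4.64e-06), and only the second was called. Without Day 1 replicate 2 the first was 0.36 (FDR = 0.0543). The 2 genes did not rise equally. The ratio of *Adgre1* to *Csf1r* in TPM ran from 0.167 to 0.277 in Sham, from 0.396 to 0.473 on Day 1 and from 0.435 to 0.516 on Day 7.

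**Figure D1:**
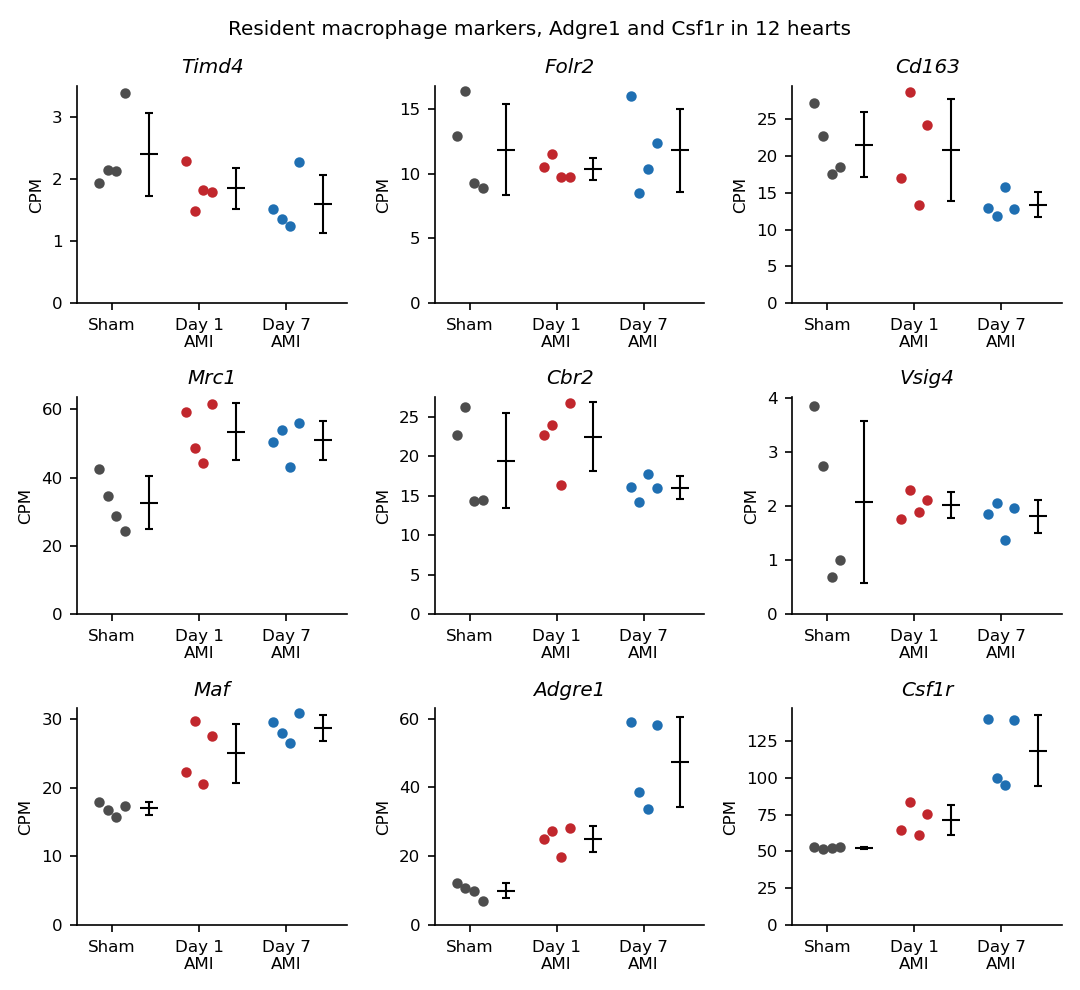
TMM-scaled CPM (y axis, from 0) of the 9 genes in each heart by group, with points in order of replicate number and a bar for the mean and SD of 4 hearts. *Adgre1* and *Csf1r* stepped up without overlap, *Mrc1* and *Maf* stood above Sham in every AMI heart, and the *Vsig4* Sham hearts ran from 0.679 to 3.86 CPM.

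Of the 7 resident markers, *Mrc1* and *Maf* were higher in AMI hearts than in Sham. *Mrc1*, the mannose receptor of tissue macrophages, was at 42.4, 34.7, 28.8 and 24.4 CPM in Sham, at 59.3, 48.7, 44.4 and 61.6 CPM on Day 1, and at 50.5, 54.1, 43.1 and 56.1 CPM on Day 7. Every AMI heart lay above every Sham heart, and the 2 AMI groups overlapped. The log2 FC against Sham was 0.71 on Day 1 (SE 0.156, edgeR FDR = 0.00244) and 0.65 on Day 7 (SE 0.156, FDR = 0.00253), which were FCs of 1.64 and 1.56. Between the AMI days it was -0.07 (FDR = 0.736, 95% interval from -0.40 to 0.26).

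*Maf*, which encodes a transcription factor of mature macrophages that also acts in lymphocytes and other cells, had the tightest Sham values after *Csf1r*. It was at 18.0, 16.8, 15.8 and 17.4 CPM in Sham, at 22.3, 29.7, 20.6 and 27.6 CPM on Day 1, and at 29.6, 28.0, 26.5 and 30.9 CPM on Day 7. Both AMI groups stood above Sham without overlap. The log2 FC was 0.56 on Day 1 (SE 0.111, edgeR FDR = 0.00134), 0.76 on Day 7 against Sham (SE 0.112, FDR = 4.75e-05), and 0.20 between the AMI days (SE 0.109, FDR = 0.151). On library sizes alone *Mrc1* and *Maf* both passed the FC of 2 on Day 7 against Sham, at log2 FCs of 1.05 and 1.16.

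*Cd163*, the scavenger receptor that takes up haemoglobin bound to haptoglobin, was the marker whose level was lower on Day 7 than in Sham. It was at 27.3, 22.8, 17.6 and 18.5 CPM in Sham and at 17.0, 28.7, 13.3 and 24.2 CPM on Day 1. On Day 7 it was at 13, 11.9, 15.8 and 12.8 CPM. The Day 7 hearts all lay below the lowest Sham heart, while the Day 1 hearts spread across both groups. The log2 FC was -0.69 on Day 7 against Sham (SE 0.209, edgeR FDR = 0.0112) and -0.64 against Day 1 (SE 0.208, FDR = 0.0208), FCs of 0.621 and 0.642, while that of Day 1 against Sham was -0.05 (FDR = 0.872). On library sizes alone the Day 7 difference from Sham was -0.28 (FDR = 0.247) and on log2(TPM + 1) it was -0.09 (limma, FDR = 0.691). The fall is thus one relative to the other genes of the library. The Day 7 against Day 1 value passed FDR 0.05 in 9 of the 12 fits that left out one heart (log2 FC from -0.80 to -0.45, edgeR FDR from 0.00362 to 0.0752). The fits that lost it were those without Day 1 replicate 2 (-0.45), Day 1 replicate 4 (-0.56) and Day 7 replicate 2 (-0.59).

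*Cbr2*, a carbonyl reductase that marks resident macrophages in several mouse tissues, was at 22.7, 26.2, 14.3 and 14.4 CPM in Sham, at 22.7, 24.0, 16.4 and 26.7 CPM on Day 1, and at 16.1, 14.2, 17.7 and 16.0 CPM on Day 7. All 3 groups overlapped, and the Sham hearts fell into a higher pair and a lower pair. The log2 FC of Day 7 against Day 1 was -0.49 (SE 0.190, edgeR FDR = 0.0473), and 7 of 12 fits that left out one heart put its FDR above 0.05, up to 0.13 without Day 1 replicate 4. Against Sham the log2 FC was 0.21 on Day 1 (FDR = 0.406) and -0.28 on Day 7 (FDR = 0.22), and the latter turned to 0.11 on library sizes alone. The mean TPM of *Cbr2* was 32.9 in Sham and 43.5 on Day 7, the opposite order to that of the CPM.

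*Timd4*, a receptor for phosphatidylserine on dying cells and the marker most closely tied to long-lived resident macrophages, had the lowest mean TPM of the 9 genes in every group. It had 37, 52, 44 and 71 counts in the Sham hearts, 60, 50, 56 and 57 on Day 1, and 49, 35, 34 and 67 on Day 7, which were 2.4 ± 0.671, 1.85 ± 0.331 and 1.6 ± 0.465 CPM (SD, n = 4). The groups overlapped in every comparison. The log2 FC was -0.38 on Day 1 (edgeR FDR = 0.236) and -0.58 on Day 7 against Sham (SE 0.248, FDR = 0.0569, 95% interval from -1.11 to -0.05). The latter rested on single hearts. It was -0.80 (FDR = 0.0148) without Day 7 replicate 4, the highest Day 7 heart, -0.67 (FDR = 0.0433) without Sham replicate 1, and -0.37 (FDR = 0.216) without Sham replicate 4, the highest Sham heart. On library sizes alone it was -0.18 (FDR = 0.561) and on log2(TPM + 1) it was -0.02 (limma, FDR = 0.92), with mean TPMs of 1.36, 1.31 and 1.34 in Sham and on Days 1 and 7.

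*Folr2*, the folate receptor beta of tissue macrophages, was at 12.9, 16.4, 9.26 and 8.89 CPM in Sham, at 10.5, 11.5, 9.72 and 9.77 CPM on Day 1, and at 16.0, 8.50, 10.4 and 12.4 CPM on Day 7. The means were 11.9, 10.4 and 11.8 CPM, and the groups overlapped throughout. The log2 FC was -0.20 on Day 1 (edgeR FDR = 0.462) and -0.00 on Day 7 against Sham (FDR = 0.986). The 95% interval of the latter, from -0.45 to 0.44, left room for a FC between 0.734 and 1.35. On library sizes alone the Day 1 difference turned to 0.07 and the Day 7 difference to 0.39 (edgeR FDR = 0.13), the size of the shift of the median gene.

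*Vsig4*, a complement receptor that binds fragments of C3, varied most among Sham hearts. It had 74, 67, 14 and 21 counts in Sham, 46, 77, 58 and 67 on Day 1, and 60, 53, 37 and 58 on Day 7. Sham replicates 1 and 2 stood above every AMI heart in CPM (3.86 and 2.75), and replicates 3 and 4 below every one (0.679 and 1.00). The log2 FC was -0.04 on Day 1 and -0.19 on Day 7 against Sham, with edgeR FDRs of 0.951 and 0.694 and a 95% interval for Day 7 from -1.05 to 0.66. Leaving out Sham replicate 1 turned the Day 1 value to 0.43 and the Day 7 value to 0.27, and the 2 values on library sizes alone were 0.25 and 0.22.

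Other readouts divided the Sham hearts in the same way. *Fcna*, a macrophage ficolin, was at 4.23 and 5.14 TPM in Sham replicates 1 and 2 and at 1.48 and 1.10 TPM in replicates 3 and 4. *C3*, the source of the ligands of VSIG4, was at 117 and 105 TPM against 26.7 and 27.0 TPM. The 6 neutrophil genes summed to 104 and 235 TPM against 9.46 and 4.20 TPM. Their sums ran from 4.20 to 235 TPM in Sham, from 112 to 466 TPM on Day 1 and from 12.9 to 174 TPM on Day 7, and 6 of 6 had more than 3 counts in at least 1 library. *Ly6g*, a defining neutrophil gene, had between 0 and 8 counts in Sham. Haemoglobin and *Alas2* transcripts summed to 3640, 15200, 1620 and 1840 TPM in Sham replicates 1 to 4. *Cd163*, *Mrc1*, *Folr2* and *Cbr2* too were higher in Sham replicates 1 and 2 than in 3 and 4, and so were *Adgre1* (12.1 and 10.9 against 9.85 and 7.12 CPM) and the summed TPM of 13 macrophage genes in general (300 and 441 against 240 and 210), so this order was not particular to the resident markers. *Timd4* was highest in replicate 4 and *Csf1r* was level. The part of these readouts in the Sham spread was not tested.

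**Figure D2:**
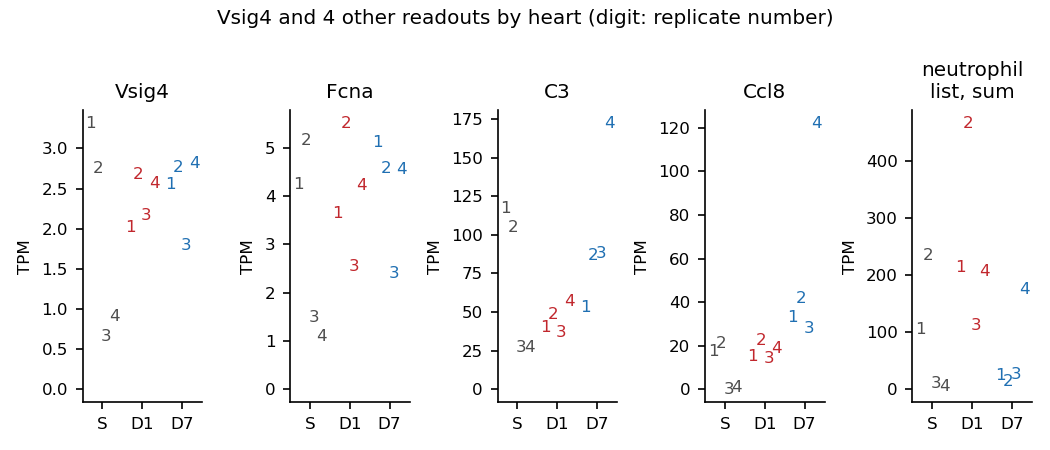
TPM (y axis) of *Vsig4*, *Fcna*, *C3*, *Ccl8* and the sum of 6 neutrophil genes in each heart of Sham (S), Day 1 AMI (D1) and Day 7 AMI (D7), with each heart drawn as its replicate number. Sham hearts 1 and 2 sat above Sham hearts 3 and 4 in all 5 panels, and *Vsig4* was at 3.31 and 2.75 TPM in the first pair and at 0.66 and 0.91 TPM in the second.

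By edgeR, 0 of 7 resident markers were called in each of the 3 comparisons. On Day 1 against Sham, 7.79% of all genes were called higher and 2.98% lower. At FDR below 0.05 with no FC minimum, 2 of 7 markers (*Mrc1*, *Maf*) were higher and 0 lower, beside 22% and 19.9% of all genes. At an unadjusted p below 0.05 the counts were also 2 and 0. On Day 7 against Day 1, 8.55% of all genes were called higher and 2.69% lower, and without the FC minimum 0 markers were higher and 2 (*Cd163*, *Cbr2*) lower, beside 24.2% and 22.8%. The unadjusted counts were again 0 and 2. On Day 7 against Sham, 15.3% of all genes were called higher and 5.88% lower. Here 2 markers were higher and 1 (*Cd163*) lower without the FC minimum, beside 30.9% and 28.4%, and 2 and 2 at an unadjusted p below 0.05, *Timd4* joining *Cd163*. DESeq2 on 12 libraries also called 0 of 7 markers in each comparison. The markers' shares were thus near or below those of all genes, and their median log2 FCs of -0.04, -0.16 and -0.19 stood beside medians of -0.01, 0.02 and 0.03 for all genes.

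**Figure D3:**
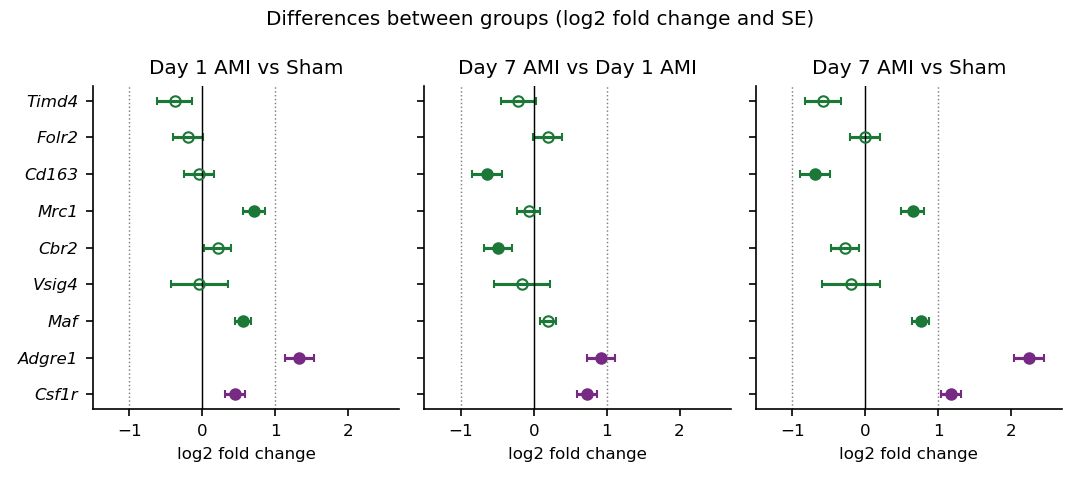
Log2 FC (x axis) with its SE for the 7 resident markers (green) and the pan-macrophage genes (purple) in the 3 comparisons, with filled points at edgeR FDR below 0.05 and dotted lines at a FC of 2. No marker crossed a dotted line, whereas *Adgre1* reached 2.25 and *Csf1r* 1.18 on Day 7 against Sham.

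The markers were next set against *Adgre1* and *Csf1r* within each library, as the log2 CPM of the marker minus the mean log2 CPM of the pair, which does not depend on how libraries are scaled. The same value was fitted with limma for 15304 genes and called at a difference of 1 or greater in size and FDR below 0.05. Since the pair rose, most genes had a lower ratio after AMI, and the share of all genes is the measure to read against.

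For *Cd163* the log2 ratio was 0.11, -0.06, -0.37 and -0.07 in Sham, between -1.38 and -0.74 on Day 1, and between -2.81 and -1.84 on Day 7. The 3 groups did not overlap. In TPM, *Cd163* stood at 0.880 ± 0.131 of the geometric mean of the pair in Sham, 0.438 ± 0.0930 on Day 1 and 0.178 ± 0.0652 on Day 7 (SD, n = 4). The Day 7 difference from Sham was -2.36 (SE 0.240, limma FDR = 1.78e-07), a ratio 5.13-fold lower and the largest drop of the 7 markers. Of 15304 genes, 13.3% had a difference in this ratio at or below that of *Cd163*.

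*Timd4* followed with -2.25 (SE 0.266, limma FDR = 6.56e-07), from log2 ratios between -3.67 and -2.49 in Sham to values between -5.84 and -5.26 on Day 7. *Cbr2* differed by -1.92 (SE 0.232, FDR = 8.17e-07) and *Folr2* by -1.69 (SE 0.211, FDR = 1.18e-06), again with no overlap between Sham and Day 7 hearts. The median difference of all genes was -1.66, which *Folr2* nearly equalled. How many of all genes lacked overlap was not counted, so the lack of overlap is not read as particular to these markers. *Vsig4* differed by -1.58 (SE 0.361, FDR = 0.000556), and its lowest Sham heart, at -4.92, lay within the Day 7 range of -5.56 to -4.88. *Mrc1* had the smallest called difference, -1.02 (SE 0.208, FDR = 0.000196). It missed the minimum of 1 with *Csf1r* alone as the reference (-0.49), on log2(TPM + 1) (-0.91) and log2(TPM + 0.1) (-0.98), and without Sham replicate 1 (-0.94), Day 7 replicate 1 (-0.92) or Day 7 replicate 4 (-0.97). Without Sham replicate 2 it missed the minimum by less than the rounding. *Maf*, at -0.93 (SE 0.193, FDR = 0.000222), missed the minimum of 1. The 2 markers that rose thus had the 2 smallest differences from the pair, and no difference between *Mrc1* and *Maf* is read from their calls.

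Relative to the pair, 2 of 7 markers (*Timd4*, *Folr2*) were called lower on Day 1 against Sham, beside 39.1% of all genes, and 4 of 7 passed FDR 0.05 without the minimum, beside 74.7%. From Day 1 to Day 7, 3 of 7 (*Timd4*, *Cd163*, *Cbr2*) were called lower, beside 32.7%, and 7 of 7 passed FDR 0.05 without the minimum, beside 64.2%. The call of *Timd4* (-1.03) missed the minimum with *Csf1r* alone (-0.95), on log2(TPM + 1), and without Day 1 replicate 1 (-0.90), Day 1 replicate 3 (-0.94) or Day 7 replicate 1 (-0.91). For *Vsig4* (-0.96, limma FDR = 0.0264) the FDR rose to 0.0609 with *Csf1r* alone. It was 0.0699 without Day 1 replicate 3, 0.0709 without Day 7 replicate 1 and 0.0685 without Day 7 replicate 4. On Day 7 against Sham, 6 of 7 were called lower, beside 77.6%, and 7 of 7 without the minimum, beside 85.7%. The median differences of the markers were -0.65, -0.96 and -1.69, and those of all genes -0.89, -0.78 and -1.66. On Day 1 against Sham the markers' median drop and shares were smaller than those of all genes. In both comparisons of Day 7 they were larger. These differences were not tested, so nothing particular to the markers is read from them. The count on Day 1 depended on the reference: with *Csf1r* alone it was 0 of 7 and with *Adgre1* alone 5 of 7, beside 10.7% and 74.6% of all genes, and it lay between 1 and 4 when one heart was left out.

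**Figure D4:**
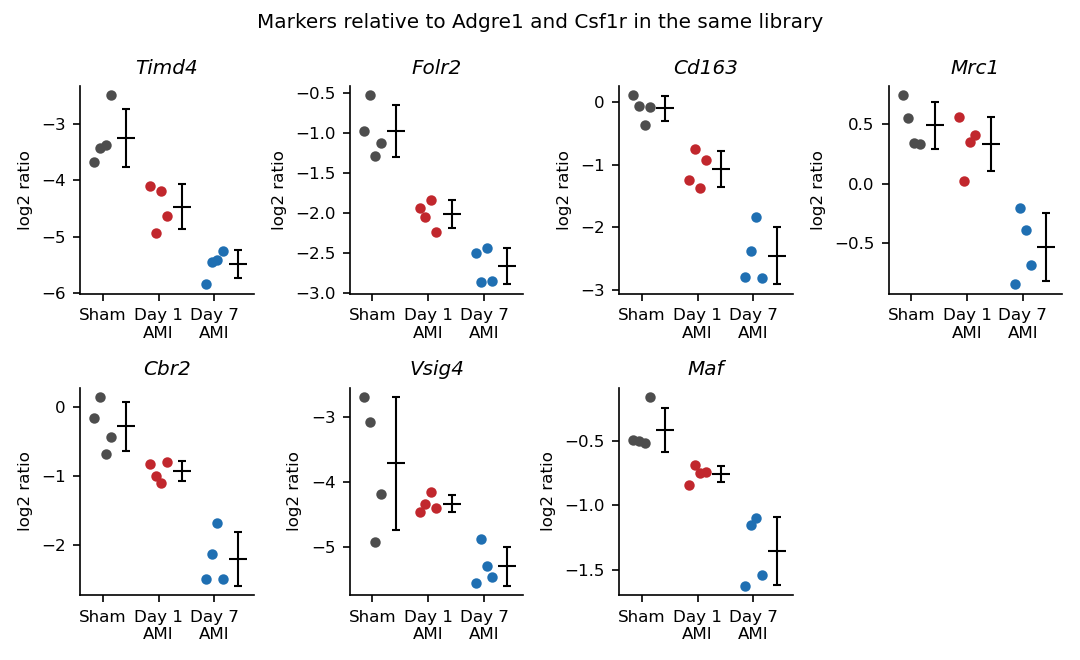
Log2 CPM of each resident marker minus the mean log2 CPM of *Adgre1* and *Csf1r* in the same library (y axis, a scale of its own in each panel), by heart and group, with the mean and SD of 4 hearts. Day 7 hearts lay below all Sham hearts for every marker except *Vsig4*, and *Cd163* went from between -0.37 and 0.11 to between -2.81 and -1.84. The median difference of all genes between these groups was -1.66. The share of all genes without overlap was not counted, so the lack of overlap is not read as particular to the markers.

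The order of the 9 genes by mean TPM changed with time. In Sham it was *Cbr2* (32.9 TPM), *Folr2* (17.3), *Csf1r* (15.4), *Mrc1* (7.28), *Cd163* (6.56), *Maf* (3.66), *Adgre1* (3.63), *Vsig4* (1.91) and *Timd4* (1.36). Neighbours were apart, with no overlap between hearts, only from *Csf1r* to *Mrc1* and from *Cd163* to *Maf*. On Day 1, *Csf1r* (26.2 TPM) had passed *Folr2* (18.7), and *Adgre1* (11.4) had passed *Cd163* (7.75), with which it still overlapped. On Day 7 *Csf1r* was first at 52.1 TPM, although its hearts overlapped those of *Cbr2* (43.5), and *Adgre1* (25.5) stood beside *Folr2* (25.0). *Cd163* (6.04 TPM) was then below *Maf* (9.32) without overlap, the reverse of their order in Sham. *Vsig4* and *Timd4* were last in all 3 groups, at mean TPMs of no more than 2.48 and 1.36.

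The shape of each gene over the 12 libraries was compared by the root mean square difference between centred log2 CPM values, where 0 is an identical pattern. Over 36 pairs of members this ran from 0.247 to 1.22 with a median of 0.566. The closest pairs were *Maf* and *Csf1r* (0.247), *Mrc1* and *Maf* (0.249), and *Cd163* and *Cbr2* (0.271), and the farthest were *Timd4* and *Cd163*, each against *Adgre1* (1.22). *Mrc1* and *Maf* lay nearer to *Csf1r* (0.411 and 0.247) than to *Cd163* (0.626 and 0.62). Among 15306 genes, the 3 nearest to *Cd163* were *Gata6* (0.193), *Pdzd2* (0.212) and *Pde4d* (0.218), against a median of 0.529 over all genes. Those nearest to *Vsig4* were *Fcna* (0.310), *Ednra* (0.321) and *Gfpt2* (0.325), with a median of 0.694. *Adgre1* was nearest to *Nckap1l* (0.166), *Galnt12* (0.167) and *Pld4* (0.203), with a median of 0.996. *Fcna* was the only other gene of the lists used here among the nearest 3 of any member. For *Timd4* they were *Igf2* (0.173), *Prom1* (0.215) and *Ankrd24* (0.220), and for *Folr2* *Mustn1* (0.121), *Zfp236* (0.179) and *St3gal1* (0.180). For *Mrc1* they were *Crem* (0.153), *Ints2* (0.168) and *Dnaja1* (0.189), and for *Cbr2* *Tpbgl* (0.171), *Nrip2* (0.194) and *Gpank1* (0.195). For *Maf* they were *Pros1* (0.109), *Lyst* (0.121) and *Rap1b* (0.121), and for *Csf1r* *Arap1* (0.110), *Taok3* (0.116) and *Arl6ip1* (0.120). The points share the libraries and the scaling, so these distances are descriptions without a test.

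Of 16 further genes reported for cardiac resident macrophages, several of them shared with endothelium or fibroblasts, 14 were tested. Counts of called genes in this list and those below stand beside the shares of all genes. These were 7.79% higher and 2.98% lower on Day 1 against Sham, and 8.55% and 2.69% from Day 1 to Day 7. For Day 7 against Sham they were 15.3% and 5.88%. No list was tested against these shares. On Day 1, 2 were called higher and 0 lower (*Pf4*, log2 FC 1.22, and *Siglec1*, 1.08), with a list median of 0.46. From Day 1 to Day 7, 3 were called higher (*Cx3cr1*, 2.01, *Igf1*, 1.58, and *Hpgd*) and 2 lower (*Ccl24*, -2.32, and *Pf4*, -1.10). Between Day 7 and Sham, 3 were called higher and 0 lower, namely *Cx3cr1* (2.43, edgeR FDR = 7.81e-06), *Igf1* (2.16, FDR = 5e-08) and *Ccl8* (1.93, FDR = 0.0368). In Sham replicates 1 to 4 *Ccl8* was at 17.4, 21.1, 0 and 0.84 TPM, divided as *Vsig4* was, so the size of its change is uncertain. *Cx3cr1*, the fractalkine receptor, and *Igf1*, a growth factor that macrophages and fibroblasts make, had the largest differences of this list from Sham on Day 7. Members of the list below the FC of 2 went both ways. *Siglec1* (0.99, FDR = 0.00322), *Stab1* (0.97, FDR = 4.8e-05) and *Ltc4s* (0.73, FDR = 0.00874) were higher on Day 7 than in Sham. So were *Hpgd* (0.54, FDR = 0.0415) and *Gas6* (0.31, FDR = 0.00532). *Lyve1*, a hyaluronan receptor of resident macrophages and lymphatic vessels, was lower on Day 7 than in Sham (-0.64, FDR = 0.0074) and than on Day 1 (-0.82, FDR = 0.00207), and *F13a1*, a coagulation factor subunit, was lower on Day 7 than on Day 1 (-0.84, FDR = 0.00178) after a higher level on Day 1 (0.67, FDR = 0.00907). *Cd209f* and *Cd209g* did not pass the filter, with at most 15 and 9 counts in a library.

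Of 13 further genes of macrophages in general, 9 were called higher on Day 1 and 11 on Day 7 against Sham, with 0 lower and list medians of 1.39 and 1.93, led by *Lgals3*, a galectin (log2 FCs 3.46 and 3.71), *Itgam*, an integrin of myeloid cells (2.60 on Day 1), and *Ctss*, a lysosomal protease (3.02 on Day 7). Those not called on Day 1 were *C1qa* (0.61, edgeR FDR = 0.0577), *C1qb* (0.52, FDR = 0.0486), *C1qc* (0.37, FDR = 0.149) and *Mertk* (0.34, FDR = 0.121). Of these, *C1qb* (1.42) and *C1qc* (1.14) were called on Day 7 against Sham. The Day 1 rise was thus not shared by every gene of this list. From Day 1 to Day 7, 1 was called higher (*Ctss*, 1.15) and 1 lower (*Itgam*, -1.07). Of 8 genes of recruited monocytes, 7 were called higher on Day 1, led by *Chil3* (4.69) and *F10* (4.00), and 4 on Day 7 against Sham, led by *Plac8* (3.40) and *Ms4a4c* (3.33). From Day 1 to Day 7, 3 monocyte genes were called lower and 0 higher, with *Chil3* at -4.42 and *F10* at -2.36. The others were not called: *Ccr2* (-0.15, edgeR FDR = 0.669), *Ly6c2* (-0.42, FDR = 0.463), *Plac8* (0.16, FDR = 0.757), *Ms4a4c* (-0.09, FDR = 0.869) and *Ifitm6* (-0.60, FDR = 0.379). Against Sham, *Ccr2* stood at 3.46 on Day 1 and 3.32 on Day 7, both called. A fall of the whole list is not read from the called genes. In Sham hearts *F10* had between 1 and 16 counts. The summed TPM of these 8 genes ran from 5.02 to 14.2 in Sham, from 72.6 to 189 on Day 1 and from 34.2 to 122 on Day 7, whereas that of the 7 resident markers ran from 52.0 to 95.2, from 78.4 to 115 and from 92.0 to 116. The resident sum was above the monocyte sum in every Sham heart, and the ranges overlapped on both AMI days. On log2(TPM + 1) the median gene itself stood 0.23 above Sham on Day 1 and 0.44 on Day 7. *Cbr2* had the highest mean TPM of the 7 markers in each group. A rise of the resident markers is therefore not read from their sum.

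**Figure D5:**
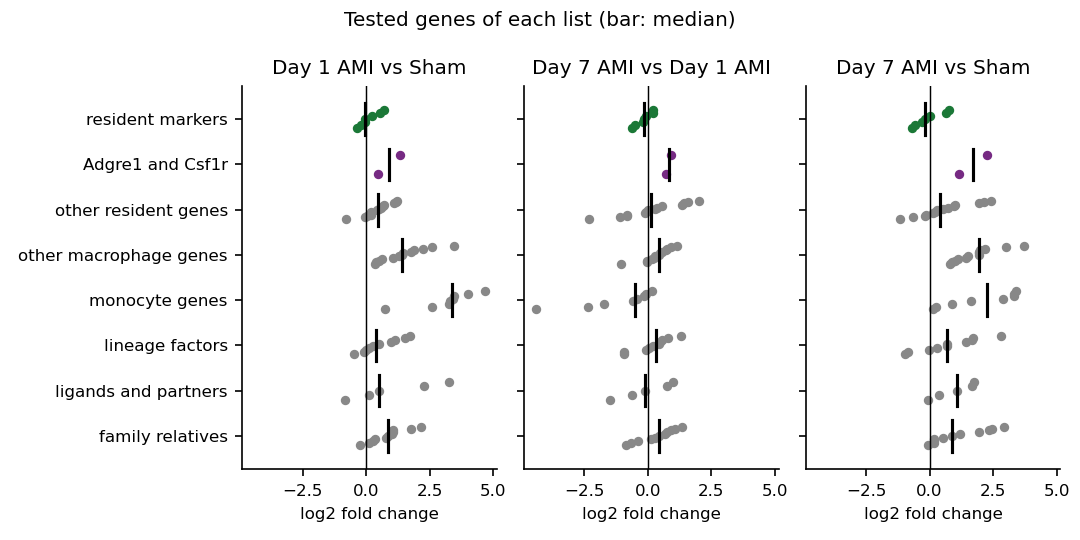
Log2 FC (x axis) of each tested gene in 8 lists for the 3 comparisons, with a bar at the list median. The resident markers ran from -0.38 to 0.71 on Day 1 and from -0.69 to 0.76 on Day 7 against Sham, while macrophage genes in general had medians of 1.39 and 1.93.

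Of 11 transcription factors of the macrophage lineage other than *Maf*, 10 were tested, and *Spic*, with at most 20 counts, was not. On Day 1, 3 were called higher and 0 lower, led by *Spi1*, which encodes PU.1 (log2 FC 1.72), and *Runx1* (1.51). For Day 7 against Sham, 4 were called higher and 0 lower, led by *Runx1* (2.82) and *Irf8* (1.70), beside a list median of 0.69. From Day 1 to Day 7 only *Runx1* was called (1.30).

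Ligands and partners of the members were followed as a list of 5. *Hmox1*, the haem-degrading enzyme downstream of CD163, was at 7.29 ± 2.08 TPM in Sham, 87.5 ± 29.5 on Day 1 and 36.1 ± 13.9 on Day 7 (SD, n = 4). It was called higher on Day 1 (log2 FC 3.26, edgeR FDR = 8.16e-06) and lower from Day 1 to Day 7 (-1.51, FDR = 0.000456). *Hp*, haptoglobin, was called higher on Day 1 (2.27, FDR = 0.00763). The Day 1 log2 FC of *Cd163* was -0.05 in the same hearts. *Il34*, a ligand of the *Csf1r* product, was called higher from Day 1 to Day 7 (1.00, FDR = 9.53e-05) and on Day 7 against Sham (1.10, FDR = 2.48e-05), and *Csf1*, the other ligand, had log2 FCs of 0.51 and 0.38 on Days 1 and 7 against Sham (FDR = 0.00385 and 0.0138), under the FC of 2. *C3* was not called in any comparison, with log2 FCs of -0.83, 0.76 and -0.07. In the list of 5, 2 were called higher on Day 1, 1 higher and 1 lower from Day 1 to Day 7, and 3 higher on Day 7 against Sham, with *Hmox1* at 1.75 (FDR = 0.00013) and *Hp* at 1.67 (FDR = 0.0262).

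Of 14 relatives of the members, 11 were tested, and 3 were called higher on Day 1, 2 from Day 1 to Day 7 and 5 on Day 7 against Sham, with 0 lower. *Havcr2*, of the family of *Timd4*, led on Day 1 and Day 7 against Sham (2.17 and 2.94), followed by *Flt3*, a receptor kinase related to *Csf1r* (1.75 and 2.44). Both had few counts in Sham hearts, between 5 and 13 for *Havcr2* and between 1 and 8 for *Flt3*. *Mrc2*, a collagen receptor of the family of *Mrc1*, led from Day 1 to Day 7 (1.34), followed by *Pla2r1* of the same family (1.08). *Folr1* had 0 counts in Sham and between 5 and 30 on Day 7, and did not pass the filter.

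Other cell types were followed in the same hearts. The 6 cardiomyocyte genes, led by *Myl2* and *Myh6* in TPM, summed to between 47100 and 53600 TPM in Sham and between 28400 and 36200 TPM on Day 7, and 4 were called lower on Day 7 against Sham, led by *Myl2* (-1.37) and *Tnni3* (-1.35). The 4 fibroblast genes, led by *Dcn* and *Col1a1*, summed to between 356 and 473 TPM in Sham and between 1190 and 2150 TPM on Day 7, and 2 were called higher (*Col1a1*, 4.42, and *Tcf21*, 1.45). On Day 1 against Sham, *Col1a1* alone was called (1.42), and from Day 1 to Day 7 3 were called higher, led by *Col1a1* (3.01) and *Tcf21* (1.48). Of lymphatic genes, which share *Lyve1* with resident macrophages, *Pdpn* and *Prox1* led in TPM. Only *Pdpn* of 5 tested was called, at 2.83 on Day 1 and 1.65 on Day 7 against Sham and -1.18 from Day 1 to Day 7. The list medians were -0.70, -0.12 and 0.29. On Day 1, *Prox1* (-0.70, edgeR FDR = 0.000819), *Reln* (-0.87, FDR = 0.00148) and *Mmrn1* (-0.70, FDR = 0.0021) were lower, and *Flt4* was higher (0.32, FDR = 0.0338). Against Sham on Day 7, *Prox1* (-0.81, FDR = 9.72e-05) and *Reln* (-0.58, FDR = 0.0102) were lower and *Flt4* higher (0.65, FDR = 0.000211). Of 5 dendritic cell genes, led by *Zbtb46* and *Itgax* in TPM, 2 were called higher on Day 1 and on Day 7 against Sham (*Itgax*, 3.28 and 3.45, and *Cd209a*, 2.11 and 2.91), and 1 from Day 1 to Day 7 (*Clec9a*, 1.03). *Cd209a* had between 1 and 7 counts in Sham hearts, near the floor of 3. Of 5 tested neutrophil genes, led by *S100a8* and *S100a9*, 2 were called higher on Day 1 (*Csf3r*, 3.24, and *Cxcr2*, 2.98), 3 lower from Day 1 to Day 7 (led by *Cxcr2*, -4.06, and *S100a9*, -2.39), and 1 lower and 1 higher on Day 7 against Sham (*Retnlg*, -3.25, and *Csf3r*, 1.64). *Retnlg* had between 0 and 21 counts on Day 7. Of 3 tested T cell genes, led by *Cd3g* and *Cd2*, 1 was called higher on Day 1 (*Cd3e*, 1.72), 1 from Day 1 to Day 7 (*Cd3g*, 1.85) and 2 on Day 7 against Sham (*Cd3e*, 2.82, and *Cd3g*, 2.36). In Sham hearts *Cd3e* had between 1 and 3 counts and *Cd3g* between 2 and 7, near the floor of 3, so the sizes of these changes are uncertain. Of 4 B cell genes, led by *Cd79b* and *Cd79a*, *Cd79b* alone was called, on Day 7 against Sham (1.07). Of 5 erythroid genes, led by *Hbb-bs* and *Hba-a1*, 3 were called lower on Day 1 (led by *Alas2*, -1.97, and *Hba-a1*, -1.76) and 3 on Day 7 against Sham (led by *Hbb-bt*, -1.90, and *Hba-a1*, -1.65). Sham replicate 2 stood apart, with a sum of 15200 TPM. The median sums were 2740 TPM in Sham, 2350 TPM on Day 1 and 2850 TPM on Day 7, so no fall of blood transcripts is read from these calls. None of 4 lung epithelial genes, led by *Sftpc* and *Sftpa1*, passed the filter, and *Sftpc* was at 0 TPM in 10 hearts and at 3.23 and 14.2 TPM in Day 7 replicates 1 and 3. Replicate 3 had the highest Day 7 *Cd163* (15.8 CPM) and *Cbr2* (17.7 CPM). It had the lowest Day 7 CPM of *Mrc1* (43.1), *Timd4*, *Vsig4*, *Maf*, *Adgre1* and *Csf1r*. The part of these cell types in the markers' values was not tested.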

How the data were processed

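RNA-Seq libraries of 12 mouse hearts (4 Sham, 4 Day 1 AMI, 4 Day 7 AMI) were grouped by their labels. Per the study's methods, the authors used Cutadapt on the paired 150-bp reads, STAR 2.4.0j for alignment to GRCm38 and RSEM for TPM. The submitters' processing notes also name CASAVA 1.8. The authors deposited raw counts per gene, with no normalization, and TPM from RSEM. The tool behind the counts, the strand and the treatment of multimapped reads are not given in the sources used here.

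Counts were analysed with edgeR 4.0.16 in R 4.3.3 (TMM, filterByExpr by group, quasi-likelihood test, Benjamini-Hochberg FDR). Log2 CPM used a prior count of 2. Marker ratios were fitted with limma 3.58.1. Depth ran from 23204551 to 32166517 counts per library. Intervals and the floor of 3 counts cover no error beyond the fit or counting. Alternatives were DESeq2 1.42.0, limma on log2(TPM + 1) and log2(TPM + 0.1), other scalings, no filter, only the groups compared, a replicate block, single reference genes and each heart left out. The fits were tested on simulated data, where the sampling error of *Adgre1* and *Csf1r* passed to the ratio of every gene alike, an error that the SE of one gene's ratio includes but that genes share.

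The 9 members and the gene lists were chosen with earlier results of these data known. All members are named. From other lists the 2 called genes with the largest change in each comparison and the most abundant cell type markers are named. Untested genes are named for the lists of further resident genes and transcription factors. Others were chosen after their values were seen, such as *Fcna*, *Lyve1*, *F13a1*, *Ccl8*, *Csf1*, *C3*, *Hp*, *Hpgd*, *Stab1*, *Ltc4s*, *Gas6*, *C1qa*, *C1qb*, *C1qc*, *Mertk*, *Ccr2*, *Ly6c2*, *Ifitm6*, *Reln*, *Mmrn1*, *Flt4*, *Folr1* and *Ly6g*. Replicate numbers did not pair the hearts: same-numbered deviations correlated between -0.244 and 0.229. Figures were drawn with matplotlib 3.10.9.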

Additional observations from a re-analysis of the deposited data

Results flagged for a closer look

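The log2 ratio of *Maf* to *Adgre1* and *Csf1r* stood apart in Sham replicate 4, at -0.16 against -0.49, -0.50 and -0.52 in the other Sham hearts. Its gap to the nearest heart was 0.908 of the range of the group, above Dixon's 95% critical value for 4 samples. Of 48 groups tested in this way, 1 passed that value, and chance gives about 1 in 20. The CPM of *Maf* in that heart (17.4) lay within the Sham range, and its *Adgre1* (7.12 CPM) was the lowest of the 12 hearts.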

How the results depend on the processing

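The counts of 0 called markers held in 22 of 22 alternatives for markers lower on Day 1 AMI against Sham and for markers higher on Day 7 AMI against Day 1 AMI. Elsewhere the count of called markers moved. On Day 1 against Sham, 1 marker (*Mrc1*) was called higher on log2(TPM + 0.1), beside 11.4% of all genes. On Day 7 against Sham, 2 (*Mrc1*, *Maf*) were called higher on library sizes alone, on log2(TPM + 1) and on log2(TPM + 0.1), beside 23.7%, 17.4% and 27.1% of all genes. With no minimum FC the counts were 2 higher on Day 1 against Sham, 2 lower on Day 7 against Day 1, and 2 higher and 1 lower on Day 7 against Sham. Relative to *Adgre1* and *Csf1r*, the Day 1 count of 2 lower became 0 with *Csf1r* alone, 5 with *Adgre1* alone, 1 on log2(TPM + 1) (31.1% of all genes) and 4 with no minimum difference, and ranged from 1 to 4 when one heart was left out. The Day 7 against Day 1 count of 3 became 7 with no minimum difference, and the Day 7 against Sham count stayed within 1.5 times of 6 in 19 of 19 alternatives.

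Directions turned for markers with small differences. On library sizes alone, log2(TPM + 1) and log2(TPM + 0.1) in turn, the log2 FC on Day 1 against Sham became 0.07, 0.15 and 0.16 for *Folr2*, 0.24, 0.17 and 0.19 for *Cd163*, and 0.25, 0.32 and 0.56 for *Vsig4*. Against Sham on Day 7 it became 0.39, 0.50 and 0.53 for *Folr2*, 0.11, 0.46 and 0.47 for *Cbr2*, and 0.22, 0.37 and 0.62 for *Vsig4*. On Day 7 against Day 1 it became 0.06, 0.22 and 0.23 for *Mrc1*, and on the TPM scales 0.05 and 0.06 for *Vsig4* and, on log2(TPM + 1), 0.00 for *Timd4*. The median gene moved by 0.26, 0.15 and 0.43 on library sizes alone. The ratio on Day 1 turned to 0.30 for *Mrc1* and 0.11 for *Maf* with *Csf1r* alone as the reference. With one heart left out, Day 1 values ran from -0.32 to 0.00 for *Folr2*, from -0.24 to 0.12 for *Cd163* and from -0.32 to 0.43 for *Vsig4*. Day 7 values against Sham ran from -0.19 to 0.19 for *Folr2* and from -0.49 to 0.27 for *Vsig4*, and *Mrc1* on Day 7 against Day 1 from -0.15 to 0.00. The cause of these changes was not tested beyond the shift of the median gene.

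The replicate numbers share only a number. With the replicate block, the counts of called markers were 0 in every comparison and 2, 3 and 6 relative to the pair, *Vsig4* on Day 1 turned to 0.12 and *Folr2* on Day 7 against Sham to 0.01, the FDR of *Cbr2* on Day 7 against Day 1 rose to 0.0641 and that of *Timd4* on Day 7 against Sham was 0.0431. Of the values of single genes under the alternatives, 859 kept their direction and their call by FC and FDR together, 42 turned, 26 were newly called and 18 were no longer called. By FDR 0.05 alone, 41 changed side, 39 of them among the 859. *Timd4* and *Vsig4* had the fewest counts of the 9 genes, from 14 to 77 per library.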
